A study of Mus musculus with 8 samples.

Results

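The genes described here are 10 genes by which type 2 conventional dendritic cells (cDC2) are recognised in the mouse: Mgl2, Clec10a, Cd209a, Irf4, Klf4, Sirpa, Itgam, Itgax, Cd7 and Ltb. They were taken by symbol from a table of 10825 genes, all 10 were listed in it, and all 10 had counts in each of the 8 libraries. Dendritic cells (DCs) had been sorted from E0771 tumours, which grow from a mouse mammary carcinoma line, in wild-type mice. There were 4 samples from mice given DRQ, described in the labels as an inhibitor of CD74, and 4 from mice given PBS. All 8 samples shared the WT genotype, the tumour line, a treatment start on day 10 and a harvest at 3 weeks. The labels name no strain, age or sort gate and do not say whether a sample pooled mice. The p-values therefore measure the spread between samples, which may be technical. RNA was read at its 3′ end by a bulk form of MARS-seq, and values are CPM, counts scaled to a common library total, with TMM factors that correct for differences in library composition.

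cDC2 are the DC subset that takes up antigen and presents it mainly to CD4+ T cells, and they depend on the transcription factor IRF4, with KLF4 needed for part of the subset. Their surface is read by the C-type lectins MGL2 (CD301b), CLEC10A (CD301a) and CD209A, by the inhibitory receptor SIRPα and by the integrin αM (CD11b), while the integrin αX (CD11c) is shared with other conventional DCs. Several of the genes are not private to cDC2. Mouse natural killer (NK) cells also transcribe Itgam, Itgax and Cd7, lymphocytes transcribe Ltb, and monocytes and macrophages transcribe Itgam, Sirpa and Klf4. These are examples and not a complete list, and which cells gave the lectin transcripts was not tested.

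Depths were 438648 to 539381 counts in DRQ libraries and 361792 to 543892 in PBS libraries. A count of 0 (limit 3 counts) would allow up to 5.52 to 8.29 CPM by library, counting error only. Transcripts of other cells were abundant in every library. The 12 genes of an NK cell list summed to between 10557 and 15756 CPM in DRQ and between 12153 and 16952 CPM in PBS, and the 12 listed T cell genes to between 2709 and 2825 CPM in DRQ and between 2267 and 3075 CPM in PBS. The 6 listed neutrophil genes summed to between 116.5 and 453.1 CPM in DRQ, against 199.0 to 486.6 CPM in PBS replicates 1, 3 and 4. In PBS replicate 2, which stood apart, they summed to 1492 CPM. Of this, 1452 CPM was Mmp9 alone, while Hdc had its lowest PBS level there, 5.31 CPM. PBS replicate 2 also had the lowest Mgl2 level and the lowest lectin and conventional DC sums, and the part of other cells' transcripts in these was not tested. In a bulk sample, more cells of a type and more RNA per cell cannot be told apart.

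The pattern of the 10 genes was uneven. The 3 lectin genes Mgl2, Clec10a and Cd209a had every DRQ library above every PBS library, as did 1.93% of the 10825 genes. Estimated ratios of DRQ to PBS were 3.44 for Mgl2, from the filtered fit, and 4.94 for Clec10a and 3.39 for Cd209a, from a fit without a filter. The Clec10a and Cd209a ratios rest on 14 and 16 counts in PBS. Cd7 had every DRQ library below every PBS library, at a ratio of 0.717. Irf4, Klf4, Sirpa, Itgam, Itgax and Ltb had overlapping groups. None of the 8 genes tested in the fit described next passed it, and Clec10a and Cd209a were not tested there.

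The comparison of DRQ with PBS asked what an inhibitor of CD74 did to the transcripts of tumour DCs. It was tested over 6156 genes that passed a filter on low counts, with a threshold of 0.05 on the adjusted p. The filter asked for about 21.4 unscaled CPM in at least 4 libraries. Of the 10 genes 8 passed it, and Clec10a and Cd209a did not: each reached that level in 3 DRQ libraries and 0 PBS libraries. Mgl2 reached it in 4 DRQ and 3 PBS libraries. Of the 8 tested genes 0 were called, where 0.0325% of all tested genes were. At an unadjusted p under 0.05 there were 2 higher (Mgl2, Ltb) and 1 lower (Cd7), against 3.98% of all tested genes higher, 3.28% lower and 7.26% either way. Groups were fully apart for 2 of the 8, 1 with DRQ above (2.13% of all tested genes) and 1 with DRQ below (2.18%), against 4.3% in either direction. Estimates were above 0 for 5 of the 8, against 48.4% of all tested genes. The median log2 fold change of the 8 was 0.07 and that of all tested genes -0.01.

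**Figure D1:**
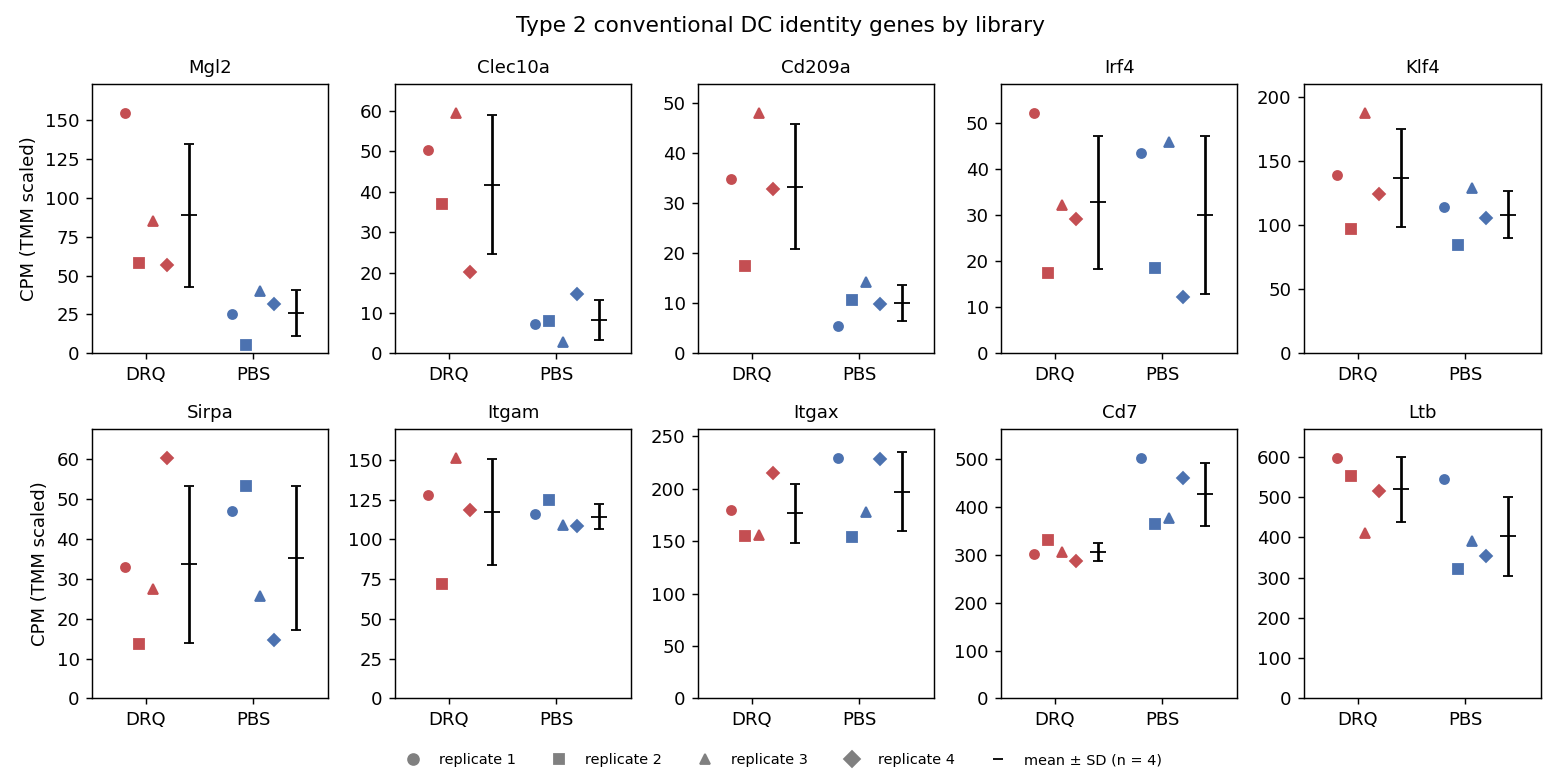
CPM (vertical axis, TMM scaled, from 0) of each of the 10 genes in each library, with DRQ in red and PBS in blue, a marker shape for each replicate number, and bars for the mean ± SD (n = 4). The red points lie wholly above the blue ones in the Mgl2, Clec10a and Cd209a panels and wholly below them in the Cd7 panel, and overlap them in the other 6 panels.

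Of the 10 genes 7 had an entry in the promoter table, and the windows of Mgl2 and Cd209a are shown because their levels were apart in the same direction. They come from RefSeq on GRCm38.p6, an earlier build than the GRCm39 named in the submitters' processing notes, and run from 250 bases before to 50 bases after the gene start, 5′ to 3′ on the gene's own strand. Mgl2 is at chr11:70130107-70130406 on the + strand and Cd209a at chr8:3748935-3749234 on the - strand. Capitals mark every match, on either strand, to 6 motifs searched: the ETS-IRF composite (GGAA, any 2 bases, GAAA), the IRF repeat (GAAA, any 2 bases, GAAA), the PU.1 core GAGGAA, AP-1 TGANTCA, NF-kB (GGG, any 2 bases, TTTCC) and the KLF box CACCC.
Mgl2: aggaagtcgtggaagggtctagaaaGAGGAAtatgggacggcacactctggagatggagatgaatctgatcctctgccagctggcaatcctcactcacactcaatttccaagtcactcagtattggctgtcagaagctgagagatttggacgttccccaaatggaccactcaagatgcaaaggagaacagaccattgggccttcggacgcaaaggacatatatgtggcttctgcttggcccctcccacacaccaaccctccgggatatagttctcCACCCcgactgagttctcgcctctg
Cd209a: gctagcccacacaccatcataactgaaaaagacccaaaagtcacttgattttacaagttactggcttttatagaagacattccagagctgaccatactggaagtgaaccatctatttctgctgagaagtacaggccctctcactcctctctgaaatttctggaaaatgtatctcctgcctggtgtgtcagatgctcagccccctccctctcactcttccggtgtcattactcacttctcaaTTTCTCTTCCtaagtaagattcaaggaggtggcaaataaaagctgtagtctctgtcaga

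The Mgl2 window held a PU.1 core at position -225 and a KLF box at position 26, counted from the gene start, letters that 28.3% and 57.5% of 32851 promoter windows of the same length also hold. The Cd209a window held the ETS-IRF composite at position -9, in the reverse orientation, as do 2.72% of windows. The 2 windows shared none of the 6 motifs. Among the 7 promoters, the PU.1 core and the KLF box were each found in 4 (Mgl2, Irf4, Itgam and Ltb), AP-1 in 1 (Itgax; 7.81% of all windows), NF-kB in 1 (Ltb; 1.63%) and the IRF repeat in 0 (3.44%). The PU.1 core can overlap the ETS-IRF composite and the IRF repeat can overlap the composite, and in the printed windows no matches overlapped. A match is a run of letters and does not show that a factor binds there.

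Mgl2 (ENSMUSG00000040950) encodes a galactose-type lectin that marks a cDC2 population of skin and lymph node. It had 154.9, 58.2, 84.9 and 56.6 CPM in DRQ replicates 1 to 4, against 25.3, 5.31, 40.1 and 32.0 CPM in PBS replicates 1 to 4. The groups did not overlap, DRQ replicate 1 stood highest, and PBS replicate 2, with 2 counts, was lowest. The means were 88.7 ± 46.0 CPM in DRQ and 25.7 ± 14.9 CPM in PBS (SD, n = 4). Its log2 fold change was 1.78 ± 0.41 (SE), with a 95% interval of 0.93 to 2.63. It had the ninth smallest p of the tested genes, and did not pass (edgeR quasi-likelihood, Benjamini-Hochberg adjusted p = 0.127). DESeq2 called it (log2 fold change 1.79, Benjamini-Hochberg adjusted p = 0.0260 over 4126 genes). Over 19 other settings the estimate stayed between 1.37, without DRQ replicate 1, and 2.04, without PBS replicate 3. Without PBS replicate 2, which stood apart in its Mmp9 level, the log2 fold change was 1.47 (edgeR quasi-likelihood, Benjamini-Hochberg adjusted p = 0.266). Without a filter Mgl2 missed the threshold (edgeR quasi-likelihood, Benjamini-Hochberg adjusted p = 0.0574) and passed it when DRQ replicate 4 was also left out (adjusted p = 0.0449).

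Clec10a (ENSMUSG00000000318) encodes the other mouse galactose-type lectin, and in the gene table used here no protein-coding gene lies between it and Mgl2 on chromosome 11. It had 50.3, 36.9, 59.6 and 20.1 CPM in DRQ replicates 1 to 4, against 7.24, 7.96, 2.86 and 14.8 CPM in PBS replicates 1 to 4. The groups were apart, with the nearest pair in replicate 4 of each, at 11 counts in DRQ and 6 in PBS. These values rest on 82 counts in the 4 DRQ libraries and 14 in the 4 PBS libraries. In a fit of all 10825 genes without a filter, its log2 fold change was 2.30 ± 0.51 (SE; 95% interval 1.27 to 3.34), and it did not pass (edgeR quasi-likelihood, Benjamini-Hochberg adjusted p = 0.0543). In that unfiltered fit 0.0739% of genes were called, and 3.84% were higher at an unadjusted p under 0.05, as all 3 lectins were. Clec10a was called there without PBS replicate 4 (edgeR quasi-likelihood, Benjamini-Hochberg adjusted p = 0.0254) and without DRQ replicate 4 (adjusted p = 0.0335). The adjusted p otherwise ranged up to 0.308, without DRQ replicate 3.

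The similarity of the 2 galactose-type lectins limits how far their counts can be separated. Of the distinct 30-base runs in the longest Mgl2 transcript of GENCODE M21, 23.0% were also found among all protein-coding transcripts of Clec10a. In the last 500 bases, nearest the 3′ end that was sequenced, the share was 0% for Mgl2 against Clec10a and 25.1% for Clec10a against Mgl2. The labels do not say how reads that fit both genes were counted. Per library, Mgl2 had 1.42 to 3.08 counts for each Clec10a count in DRQ and 0.667 to 14.0 in PBS, ranges that overlap.

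Cd209a (ENSMUSG00000031494), which encodes a lectin related to human DC-SIGN and is also transcribed by DCs that derive from monocytes, had 34.9, 17.5, 48.2 and 32.9 CPM in DRQ replicates 1 to 4. In PBS replicates 1 to 4 it had 5.43, 10.6, 14.3 and 9.84 CPM. The groups were apart, with the nearest pair in DRQ replicate 2, at 9 counts, and PBS replicate 3, at 5 counts. They rest on 66 counts in DRQ and 16 in PBS. In the unfiltered fit its log2 fold change was 1.76 ± 0.51 (SE; 95% interval 0.73 to 2.79), and it did not pass (edgeR quasi-likelihood, Benjamini-Hochberg adjusted p = 0.264). In the last 500 bases of its longest transcript none of the 30-base runs (0%) was found in Cd209b, Cd209c, Cd209d, Cd209e, Cd209f or Cd209g.

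Summed over the 3 lectins, DRQ libraries held 326 counts and PBS libraries 73. The sums were 240.1, 112.6, 192.7 and 109.6 CPM in DRQ replicates 1 to 4, against 38.0, 23.9, 57.2 and 56.6 CPM in PBS replicates 1 to 4, a ratio of the means of 3.73. The lowest DRQ sum stood above the highest PBS sum. This was bound to be so, as each of the 3 genes was apart, and it adds nothing to the single genes. Without PBS replicate 2 and with no filter the log2 fold changes were 1.48 for Mgl2, 2.28 for Clec10a and 1.80 for Cd209a. All 3 genes had DRQ wholly above PBS, a state met by 1.93% of the 10825 genes. The 3 genes were grouped by protein family after their values had been seen.

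**Figure D2:**
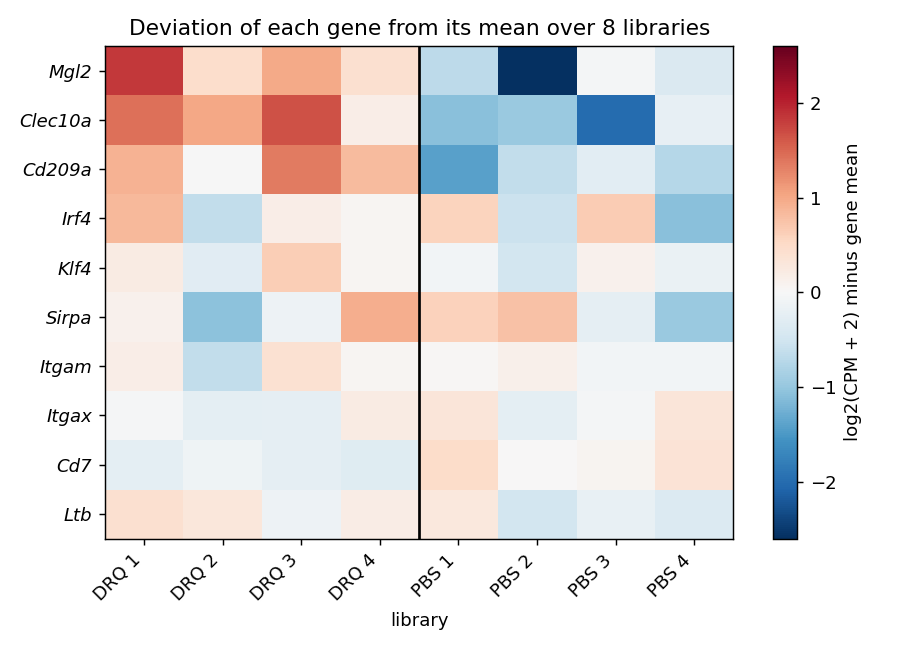
Deviation of each gene (rows) from its own mean over the 8 libraries (columns, 4 DRQ libraries left of the line and 4 PBS right of it), in log2(CPM + 2), with red above the mean and blue below it. The top 3 rows, the lectins, are red or near 0 in DRQ, lowest at -0.02 for Cd209a in DRQ replicate 2. In PBS they are blue or near 0, from -0.06 for Mgl2 in PBS replicate 3 down to -2.59 for Mgl2 in PBS replicate 2.

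Levels of the 3 lectins were also set against other DC and myeloid transcripts of the same library. Per 1000 CPM of a conventional DC list (7 genes with rows), the lectins came to 43.6, 18.1, 33.1 and 19.1 CPM in DRQ replicates 1 to 4 and 8.51, 6.66, 9.22 and 10.4 CPM in PBS replicates 1 to 4. Most of that list's sum (means 5819 CPM in DRQ and 4920 CPM in PBS) came from Cst3, Id2 and Traf1. Their means were 3909, 1444 and 384.0 CPM in DRQ and 2889, 1645 and 335.1 CPM in PBS. Flt3 had 46.6 CPM in DRQ and 30.9 CPM in PBS. Zbtb46 of that list had 23 counts over all libraries and 0 in 1 PBS library. Which cells gave the list's transcripts was not tested, so this scale is not a level per DC. Per 1000 CPM of a type 1 conventional DC (cDC1) list the lectins came to between 41.2 and 95.1 CPM in DRQ and between 13.9 and 25.1 CPM in PBS. The groups did not overlap on either scale. In the cDC1 list Xcr1, Clec9a and Tlr3 had no row. Irf8 alone averaged 1922 CPM in DRQ and 1635 CPM in PBS, of cDC1 list sums that averaged 2365 and 2023 CPM. Per 1000 CPM of the monocyte and macrophage list the ranges were 70.3 to 349.3 CPM in DRQ and 22.1 to 82.1 CPM in PBS, and these overlapped, with DRQ replicate 4 inside the PBS range.

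The transcription factors did not show the lectins' separation. Irf4, which cDC2 require and which activated lymphocytes also transcribe, had 52.3, 17.5, 32.1 and 29.2 CPM in DRQ replicates 1 to 4, against 43.4, 18.6, 45.8 and 12.3 CPM in PBS replicates 1 to 4. Both groups spanned high and low libraries. Its log2 fold change was 0.11 ± 0.44 (SE; 95% interval -0.79 to 1.01). Klf4, a zinc finger factor of a cDC2 branch that supports type 2 responses, had 139.4, 97.1, 188.1 and 124.2 CPM in DRQ and 114.0, 84.9, 128.8 and 105.7 CPM in PBS, replicates 1 to 4. Its groups overlapped, with a log2 fold change of 0.33 ± 0.23 (SE; 95% interval -0.14 to 0.81).

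Among the surface receptors, Sirpa encodes SIRPα, which binds CD47 and restrains phagocytosis. It had 32.9, 13.6, 27.5 and 60.3 CPM in DRQ replicates 1 to 4 and 47.0, 53.1, 25.8 and 14.8 CPM in PBS replicates 1 to 4. The libraries of each group were spread over about the same range, on 69 counts in DRQ and 61 in PBS. The log2 fold change was -0.07 ± 0.44 (SE; 95% interval -0.98 to 0.83). Its sign turned when any of 4 single libraries was left out.

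Itgam, the αM integrin chain, had 127.8, 71.8, 151.4 and 118.8 CPM in DRQ replicates 1 to 4 and 115.8, 124.7, 108.8 and 108.2 CPM in PBS replicates 1 to 4. The PBS libraries lay close together inside the DRQ range, and the log2 fold change was 0.03 ± 0.23 (SE; 95% interval -0.45 to 0.52). Itgax, the αX chain, had 180.1, 155.3, 156.0 and 215.6 CPM in DRQ and 229.8, 153.9, 177.5 and 228.7 CPM in PBS, replicates 1 to 4. Its groups overlapped almost wholly, with a log2 fold change of -0.16 ± 0.19 (SE; 95% interval -0.55 to 0.23). The genes for these 2 chains are neighbours on chromosome 7, and their longest transcripts shared 0% of 30-base runs with each other.

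**Figure D3:**
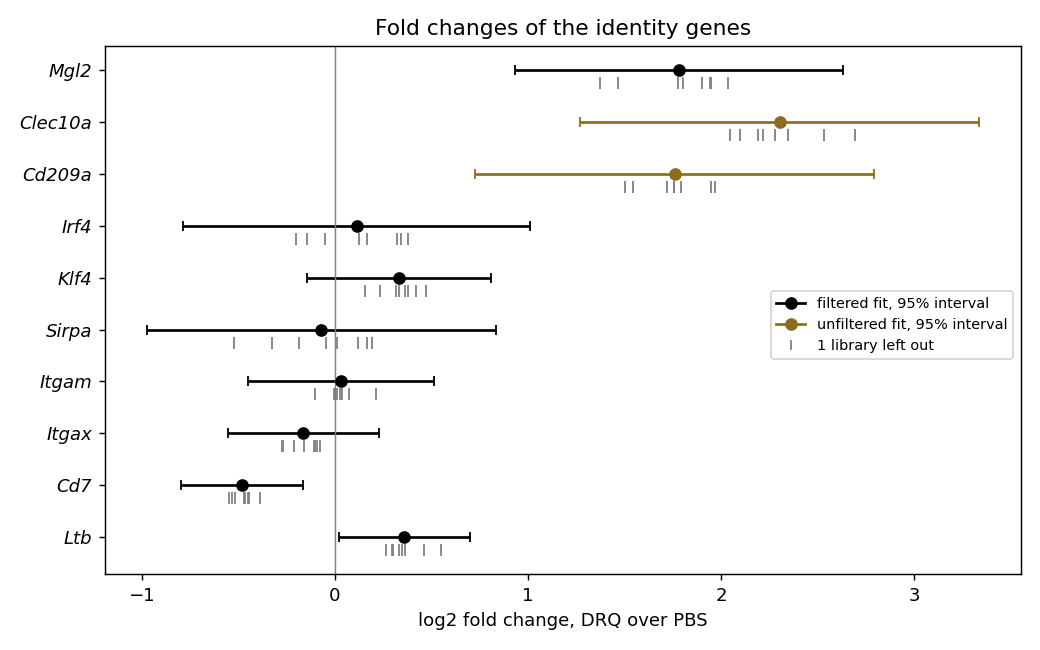
Log2 fold change of DRQ over PBS (horizontal axis) for each of the 10 genes, with 95% intervals, from the filtered fit (black) or, for Clec10a and Cd209a, the unfiltered fit (brown), and grey ticks for the estimates with 1 library left out. The 3 lectins lie between 1.76 and 2.30 with intervals above 0, Cd7 at -0.48 and Ltb at 0.36 lie on either side of 0, and the intervals of the other 5 genes include 0.

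Cd7 and Ltb gave the largest numbers of counts, and together they held 48.9% to 65.4% of the summed CPM of the 10 genes in each library. Cd7 encodes an immunoglobulin superfamily receptor of T and NK cells that some DCs also carry. It had 302.1, 332.0, 305.1 and 286.9 CPM in DRQ replicates 1 to 4, against 502.9, 363.6, 377.8 and 459.9 CPM in PBS replicates 1 to 4. The groups were apart, and the DRQ libraries were close together (306.5 ± 18.8 CPM in DRQ and 426.1 ± 66.5 CPM in PBS, SD, n = 4). The log2 fold change was -0.48 ± 0.15 (SE; 95% interval -0.79 to -0.16), and it did not pass (edgeR quasi-likelihood, Benjamini-Hochberg adjusted p = 0.333). Over 19 other settings the estimate ranged from -0.65 to -0.39, with adjusted p no lower than 0.251. Per 1000 CPM of the NK cell list Cd7 came to between 19.4 and 28.6 CPM in DRQ and between 27.1 and 35.4 CPM in PBS, so that the groups overlapped on this scale. The part of NK and T cell transcripts in the Cd7 values was not tested.

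Ltb encodes lymphotoxin β, the membrane-bound ligand chain that signals to the lymphotoxin β receptor and helps maintain DCs and lymphoid tissue. It had 598.3, 553.3, 410.6 and 515.3 CPM in DRQ replicates 1 to 4 and 544.5, 321.1, 392.1 and 354.1 CPM in PBS replicates 1 to 4. All 4 DRQ libraries lay above 3 of the PBS libraries, and PBS replicate 1 lay inside the DRQ range. The log2 fold change was 0.36 ± 0.17 (SE; 95% interval 0.02 to 0.70) and did not pass (edgeR quasi-likelihood, Benjamini-Hochberg adjusted p = 0.664). Per 1000 CPM of the T cell list Ltb came to between 151.6 and 211.8 CPM in DRQ and between 136.6 and 177.1 CPM in PBS, with overlap. The part of lymphocyte transcripts in the Ltb values was likewise not tested.

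The 12 genes of ligands, partner chains and signalling partners of these proteins were all tested, and 0 were called. Their median log2 fold change was 0.14, with 9 above 0 and 3 below. Lta, which encodes the lymphotoxin α chain that joins lymphotoxin β and whose gene is separated from Ltb by Tnf alone, had 49.1 ± 22.9 CPM in DRQ and 13.4 ± 5.88 CPM in PBS (SD, n = 4). Its log2 fold change was 1.79 ± 0.45 (SE), and it did not pass (edgeR quasi-likelihood, Benjamini-Hochberg adjusted p = 0.148). The DRQ range of 21.4 to 75.7 CPM met the PBS range of 7.96 to 21.7 CPM at its lower end. Ptpn11, a phosphatase that SIRPα recruits, stood at 0.91 ± 0.40, Batf, which pairs with IRF4 on DNA, at 0.44 ± 0.26, and Itgb2, the chain shared by both integrins, at 0.26 ± 0.18 (log2 fold change ± SE).

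Of 30 other symbols of the cDC2 program 13 were tested, and 0 were called. Their median log2 fold change was 0.05, with 9 above 0 and 4 below, and 2 were higher at an unadjusted p under 0.05, Csf2rb and Runx3, where 3.98% of all tested genes were. Csf2rb, a receptor chain for the DC growth factor GM-CSF, ranged from 42.0 to 85.2 CPM in DRQ and from 13.3 to 41.8 CPM in PBS, so that the groups were narrowly apart. Its log2 fold change was 1.30 ± 0.36 (SE) and it did not pass (edgeR quasi-likelihood, Benjamini-Hochberg adjusted p = 0.238). Runx3, a transcription factor of DCs and of cytotoxic lymphocytes, stood at 0.49 ± 0.20, Rbpj, which carries Notch signals to DNA, at 0.42 ± 0.33, and Ikzf1 at -0.33 ± 0.28 (log2 fold change ± SE). Of 18 relatives of the lectin and SIRP genes 4 had rows and 0 reached the filter: Cd209d with 28 counts over all libraries, Clec4n with 24, Clec4e with 18 and Sirpb1b with 13.

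Marker lists of other cells had no called gene. The cDC1 list had 7 of 8 tested genes above 0 (median log2 fold change 0.34), with Irf8 at 0.24 ± 0.15, and its summed level was 2054 to 2731 CPM in DRQ and 1512 to 2447 CPM in PBS. Most of that sum was Irf8, and the list's Xcr1, Clec9a and Tlr3 had no row. The shared conventional DC list had 3 of 4 above 0 (median 0.32), with Cst3 at 0.44 ± 0.20 and Flt3 at 0.57 ± 0.39 against Id2 at -0.19 ± 0.12. Its summed levels were 5509 to 6210 CPM in DRQ and 3588 to 6209 CPM in PBS. The monocyte and macrophage list had 7 of 10 above 0 and 3 below (median 0.20). Lyz2 stood at 0.87 ± 0.28 and C1qa at 1.22 ± 0.80, against Cd63 at -0.34 ± 0.21 and Cd68 at -0.24 ± 0.32. The list summed to 566.9 to 1559 CPM in DRQ and 688.6 to 1083 CPM in PBS, ranges that overlap. Its macrophage marker Adgre1 was at 0 counts in 1 DRQ and 1 PBS library.

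The NK cell list had 4 of 12 above 0 (median -0.06), with Nkg7 at -0.22 ± 0.14. The T cell list had 7 of 12 above 0 (median 0.16), with Cd5 at 0.94 ± 0.29, Cd3d at 0.83 ± 0.26 and Cd4 at 0.92 ± 0.33 against Skap1 at -0.51 ± 0.16 (log2 fold change ± SE). The plasmacytoid DC list had 2 of 3 above 0, with Siglech at 0 counts in 1 DRQ and 1 PBS library. The neutrophil list had 1 of 2, with Hdc at 0.94 ± 0.42 and Mmp9 at -2.22 ± 1.06. The single tested B cell gene, Ighm, stood at 0.55 ± 0.18, and Cd79b was at 0 counts in 2 PBS libraries. The epithelial and stromal list had 1 of 4 above 0, with Krt8 at -1.08 ± 0.33 and Sparc at -0.80 ± 0.30. The part of any of these lists in the values of the 10 genes was not tested.

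**Figure D4:**
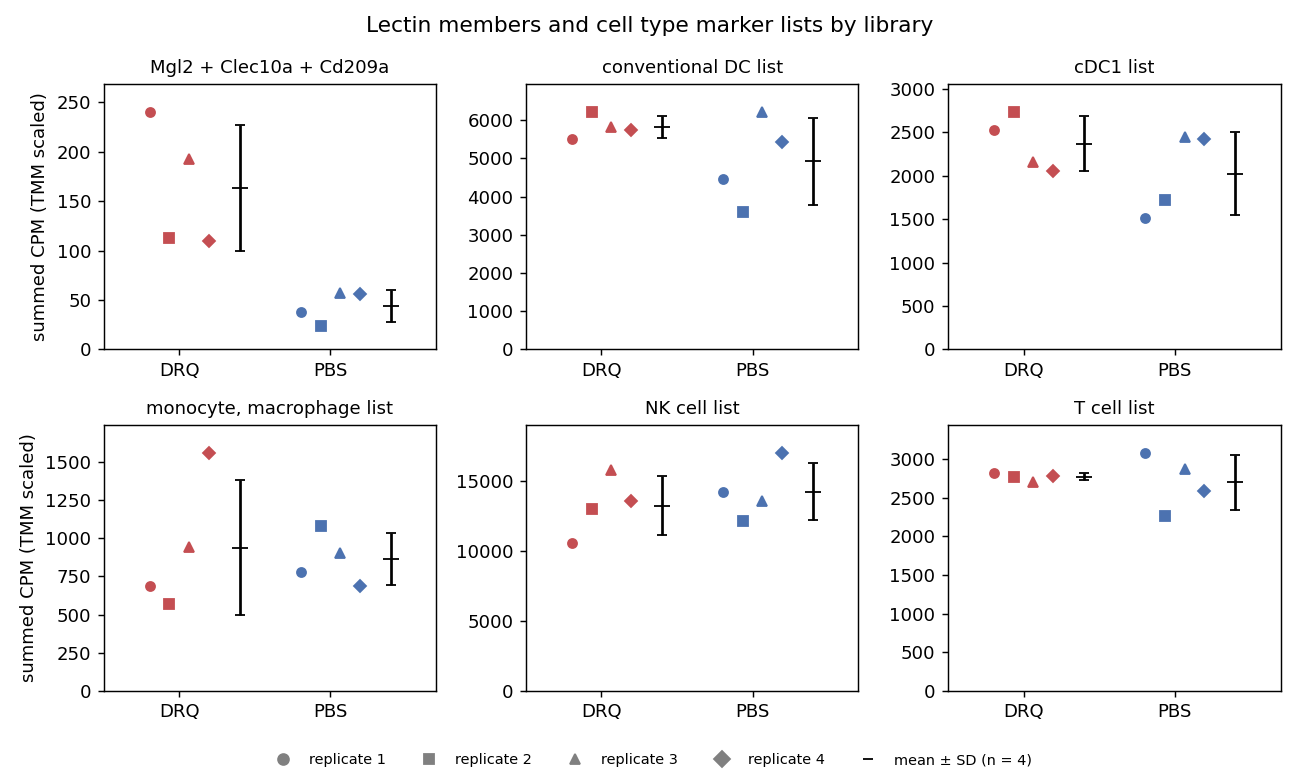
Summed CPM (vertical axes, TMM scaled, from 0) of the 3 lectin genes and of 5 marker lists in each library, with DRQ in red, PBS in blue, a marker shape for each replicate number and bars for the mean ± SD (n = 4). The lectin sums run from 109.6 to 240.1 CPM in DRQ, above 23.9 to 57.2 CPM in PBS, as they must because each of the 3 genes was apart. The groups overlap in each of the 5 lists, which were not picked in this way.

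Genes whose levels followed those of a member most closely were sought among 3435 genes with a mean of at least 50 CPM, over the 8 libraries after each group's mean had been subtracted. For Mgl2 the highest Pearson correlations were with Brk1 (0.98), Osm (0.96) and Sbno2 (0.96), and for Klf4 with Cd83 (0.95), Rbbp7 (0.91) and Srgn (0.89). For Itgam they were with Ppp2r5c (0.98), Tmem176a (0.97) and Gstp1 (0.96), and for Itgax with 1700020I14Rik (0.95), Ifit3 (0.94) and Rpl19-ps11 (0.93). For Cd7 they were with Polb (0.95), Yipf1 (0.94) and Arhgap25 (0.94). Genes close to Ltb included Tagap (0.96) and Csnk1a1 (0.95). Clec10a, Cd209a, Irf4 and Sirpa had means under 50 CPM and were outside this search. None of the 6 members searched was among the 3 nearest genes of another. With 8 libraries that share their processing and 3435 genes compared, these values describe the libraries only.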

How the data were processed

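Counts: the authors deposited whole-number counts per Ensembl gene, 1 column per sample, and a second table that holds a normalized signal, the same counts divided by 1 size factor per library (all 86600 deposited values lay within 0.005 of the count over the DESeq2 median-ratio factor). Tools in the submitters' processing notes, whose roles are not stated there, are STAR 2.7.3a, HTSeq, cutadapt, bcl2fastq 2.20.0.422, DESeq and DESeq2 1.26.0, with the build GRCm39. UMI collapsing and strand use are not stated. Symbols came from a GENCODE M21 name table, which matched 10788 of 10825 IDs.

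Counts were fitted with edgeR 4.0.16 in R 4.3.3 (TMM scaling; filterByExpr; glmQLFit with robust set, glmQLFTest; p adjusted by Benjamini-Hochberg over 6156 genes). These genes held 94.9% of all counts, and each log2 fold change is DRQ over PBS. Clec10a and Cd209a fell below the filter and were read from the fit without a filter. Alternatives used other scaling factors, DESeq2 1.42.0, limma-voom (limma 3.58.1), other filters, a replicate block, the normalized table on log2(value + 1) and each library left out. All 10 genes are named whatever their p, and genes of other lists were named from the up to 4 with the smallest p in each list and, for other cell types, the 3 most abundant. Likeness used log2 CPM with a prior count of 2. 1 gene that this rule names for Ltb is not reported here. Every pair of libraries differed by more than sampling noise (chi-square over its degrees of freedom 2.76 to 4.85). The genes and lists were chosen with earlier results of these data known. Figures used matplotlib 3.10.9.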

Additional observations from a re-analysis of the deposited data

How the results depend on the processing

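The number of genes called over all genes was 2 in the main fit, 7 with library size only, 12 with DESeq2, 8 with no filter, 6 with a replicate block, 1 with the deposited normalized table and 0 when both PBS libraries 2 and 3 were left out (added once the data had been seen). It ran from 0 to 15 with single libraries left out. The number of the 10 genes called higher was 0, but 1 with DESeq2 (Mgl2), and ran from 0 to 1 with single libraries left out (Clec10a without PBS replicate 4 or DRQ replicate 4, where it entered the fit only through the DRQ libraries in which it is high). Of the genes tested in each setting 0 of the 10 were called lower. Clec10a and Cd209a were below the filter in the main fit and in most settings that kept all 8 libraries. Mgl2, Klf4, Itgax, Cd7 and Ltb kept their direction under all 19. Itgam turned to -0.0269 with limma-voom, -0.0022 with limma-voom with quality weights and -0.0010 with the normalized table, and Sirpa to 0.0866 without PBS libraries 2 and 3; the cause was not tested. With single libraries left out, log2 fold changes ran from -0.20 to 0.38 for Irf4, -0.52 to 0.19 for Sirpa and -0.10 to 0.21 for Itgam. Same-numbered libraries showed little shared deviation (correlations -0.014 to 0.080), and 4 of 8 libraries were closest to their own number. With 4 libraries per group this check cannot tell whether the numbers pair the samples. With a replicate block and no filter edgeR called Mgl2 (1.82, quasi-likelihood, Benjamini-Hochberg adjusted p = 0.0108) and Clec10a (2.25, adjusted p = 0.0486), and in the filtered fit with that block Mgl2 had 1.80 and adjusted p = 0.0529. With no filter and no block, DESeq2 called neither Mgl2 (Benjamini-Hochberg adjusted p = 0.0519) nor Clec10a (0.0652). Limma-voom also called neither there (adjusted p = 0.211 for Mgl2 and 0.331 for Clec10a). Depth limits Clec10a and Cd209a most, with 14 and 16 counts in PBS. Lta had no value under 2 of the 19 settings, where it fell below the filter.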
